A study of Mus musculus with 4 samples.

Results

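The type II hair shaft keratins are the basic partners from which, together with acidic type I keratins, the intermediate filaments of the hair fibre are built. All probe sets carrying 1 gene symbol in the platform annotation were searched for Krt81, Krt82, Krt83, Krt84 and Krt86, and each of the 5 genes had 1 probe set: 5 of the 22690 on the array, and 5 of the 12393 genes it names. Expression was measured in hair follicles of dorsal skin at day 14 after birth, in males of the N1 generation of a cross that carries the hairless mutation of the Hos:HR-1 mouse. Hr encodes a nuclear corepressor needed for the hair cycle, and its mutation here is recessive. The 2 homozygous samples (HrHos/HrHos, replicates 2 and 3, called homozygotes 2 and 3) were set against 2 heterozygous samples (+/HrHos, replicates 3 and 4, called controls 3 and 4), whose titles carry the prefix WT. The sire was Hos:HR-1 and the dam a heterozygote bred from HR-1 and ICR, so the littermates had a mixed background, and none was treated.

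Each sample pooled 50 to 70 follicles freed by laser capture from sections 8 micrometres thick, and the RNA was amplified and labelled for a 1-colour Affymetrix array. Values are linear probe set intensities scaled by the submitters to a common level per array, and median intensities ran from 43.5 to 52.6. The labels of homozygote 3 conflict: by title it is homozygous and number 3, by the strain entry heterozygous, and its source name carries the number of homozygote 2. Whether both homozygous arrays share a source of tissue cannot be told from the labels, so 2 independent homozygous samples are not assured. The title was followed here, and differences without homozygote 3 or by its strain field are given for each member and for the main gene lists. In pooled follicles, fewer cells of a type and less RNA per cell cannot be told apart. Both arrays of each group entered every fit unless a sample is said to be left out.

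Hair keratins pair a type I with a type II chain, and the filaments fill the cells of the shaft as these leave the dividing matrix, harden and die. Different pairs mark different layers and heights of the shaft. Krt81, Krt83 and Krt86 are keratins of the cortex, the fibre's bulk, and mutations of their human counterparts are known in monilethrix, a disorder of beaded, fragile hair. Krt82 is a keratin of the hair cuticle, the layer of overlapping scales around the cortex. Krt84 is best known from the papillae of the tongue. In the RefSeq gene table the members lie on chromosome 15 in the order Krt81, Krt86, Krt83, Krt84 and Krt82, within the type II keratin cluster.

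Of the 5 members, 2 had a promoter in the RefSeq table (GRCm38.p6), Krt82 and Krt84, and they are shown because they bring into view a run of bases that both share. Each sequence covers the 250 bases before the annotated start of the gene, on the gene's own minus strand, at chr15:101550660-101550909 for Krt82 and chr15:101532821-101533070 for Krt84. Capitals mark the longest run that both sequences hold.
Krt82: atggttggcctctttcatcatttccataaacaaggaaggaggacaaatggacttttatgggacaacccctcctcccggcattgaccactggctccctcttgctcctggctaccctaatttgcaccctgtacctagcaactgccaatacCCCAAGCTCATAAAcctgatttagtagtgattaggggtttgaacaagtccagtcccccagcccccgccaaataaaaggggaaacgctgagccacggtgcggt
Krt84: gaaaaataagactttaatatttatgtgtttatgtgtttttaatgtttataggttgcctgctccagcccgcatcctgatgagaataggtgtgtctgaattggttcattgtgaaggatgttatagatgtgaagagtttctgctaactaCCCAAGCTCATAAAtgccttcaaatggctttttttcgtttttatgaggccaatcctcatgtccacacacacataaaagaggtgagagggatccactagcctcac
The shared run of 14 bases began 102 bases before the start in Krt82 and 104 before it in Krt84. Searched on both strands as CCCAAGCTCATAAA, it was found in 2 of 32851 promoter windows of the same length, 0.00609%, which are these 2. Its end reads TTTATGAG on the opposite strand, and those 8 letters on either strand were in 266 windows, 0.81%, among them 3 of the 7 type I hair keratin promoters in the table. Hoxc13, a homeobox factor of the hair shaft, is known to bind AT-rich sites of the form of TTTATGAG. Krt84 held the letters again on its own strand, 65 bases before the start. Both windows also held ATAAAAG, 32 and 33 bases before the start, a string found on either strand in 4.83% of windows. The strings were chosen after the sequences were seen, and these matches describe letters, not binding.

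In the cortex keratins Krt83 and Krt86 each homozygote lay above each control, and the group means on the log2(intensity + 32) scale differed 2.54-fold and 1.42-fold. The cortex keratin Krt81, the cuticle keratin Krt82 and Krt84 had overlapping groups. None of the 5 passed limma with Benjamini-Hochberg adjustment over the 13576 probe sets kept, the 60% with the highest mean (adjusted p of each 1.00). Limma called 0 of these, or 0.0%, while 312 had an unadjusted p under 0.05, and with robust eBayes the counts were 0 and 290. The members' median log2 difference was 0.51, beside 0.01 over all kept probe sets. All 5 lay above 0, as did 51.7% of all kept probe sets, and without homozygote 3 the members' median was 0.054. Each homozygote exceeded each control in 2 of the 5 members, and in 13.6% of all kept probe sets.

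**Figure D1:**
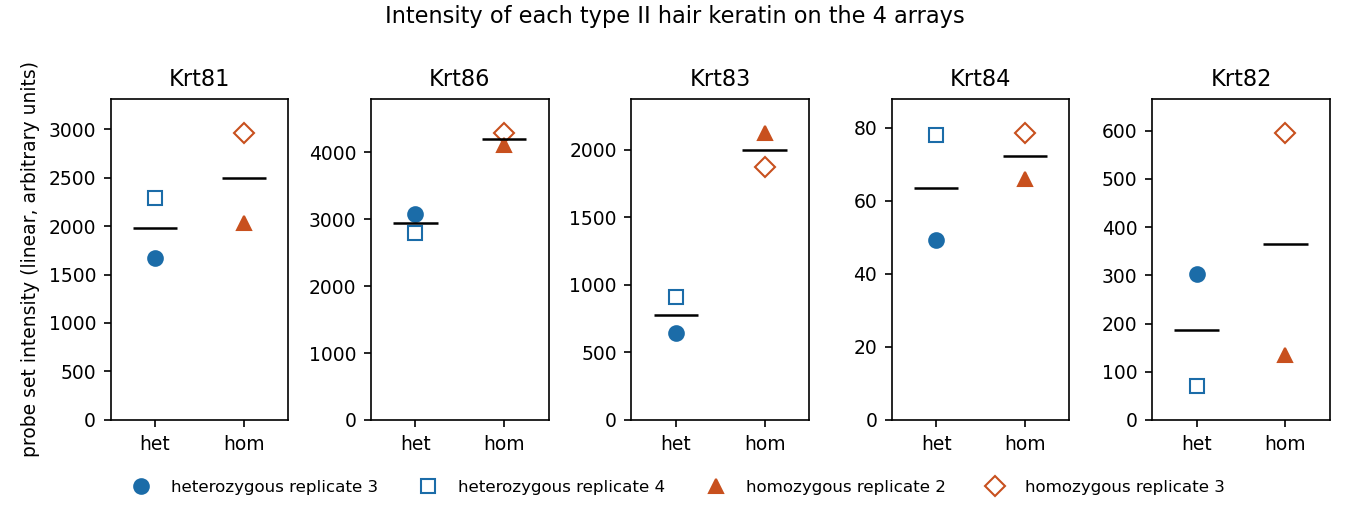
Linear probe set intensity (arbitrary units) of each type II hair keratin, with heterozygous (het) and homozygous (hom) arrays side by side, each panel on its own scale from 0 and the black bar at the mean of 2 arrays. Krt83 and Krt86 show groups that do not overlap, while the Krt82 points of either group lie far apart.

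Krt83 intensity was 642 in control 3, 912 in control 4, 2124 in homozygote 2 and 1873 in homozygote 3. Both homozygotes were high, and the groups did not overlap. The log2 difference was 1.35 ± 0.45 (SE, n = 2 per group), with a 95% interval from 0.36 to 2.33 that is not adjusted for the number of tests (limma, unadjusted p = 0.0120). It was the 1 member of 5 with an unadjusted p under 0.05 and a higher homozygous level, as 1.27% of all kept probe sets had, and 0 of 5 had one with a lower level, as 1.03% had. Of 13576 kept probe sets, 26 (0.192%) had a log2 difference as high or higher. The difference was 1.44 without homozygote 3, 1.26 without homozygote 2, 1.10 without control 3 and 1.59 without control 4. With homozygote 3 grouped by its strain field it was 1.02. Each of these alternatives leaves 1 sample in a group. The interval and unadjusted p above therefore hold only for the grouping by title with all samples in.

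Krt86 intensity was 3082 and 2799.7 in controls 3 and 4, against 4111 and 4288.5 in homozygotes 2 and 3. The samples of each group lay close together, and the groups did not overlap. The log2 difference was 0.51 ± 0.36 (SE, n = 2 per group), with a 95% interval from -0.28 to 1.30 (limma, unadjusted p = 0.181). The log2 gap between replicates was 0.14 in the heterozygous pair and 0.06 in the homozygous pair, and only 15.4% and 8.63% of kept probe sets had a smaller gap in the respective pair. The SE is wider than these gaps because limma draws each probe set's spread towards that of others of like intensity. Without homozygote 3 the difference was 0.48, and by the strain field it was 0.30.

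Krt81, the remaining cortex keratin, gave intensities of 1666 and 2293 in the controls and 2030.1 and 2959 in the homozygotes. Homozygote 3 was highest and control 3 lowest, while homozygote 2 fell between the controls. The log2 difference of 0.32 ± 0.42 (SE, n = 2 per group) had a 95% interval from -0.61 to 1.26, so a difference of 2.39-fold upward was not outside it. It rested on single samples: it was 0.054 without homozygote 3 and 0.095 without control 3, but 0.55 without control 4 and 0.59 without homozygote 2. By the strain field it was -0.14.

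**Figure D2:**
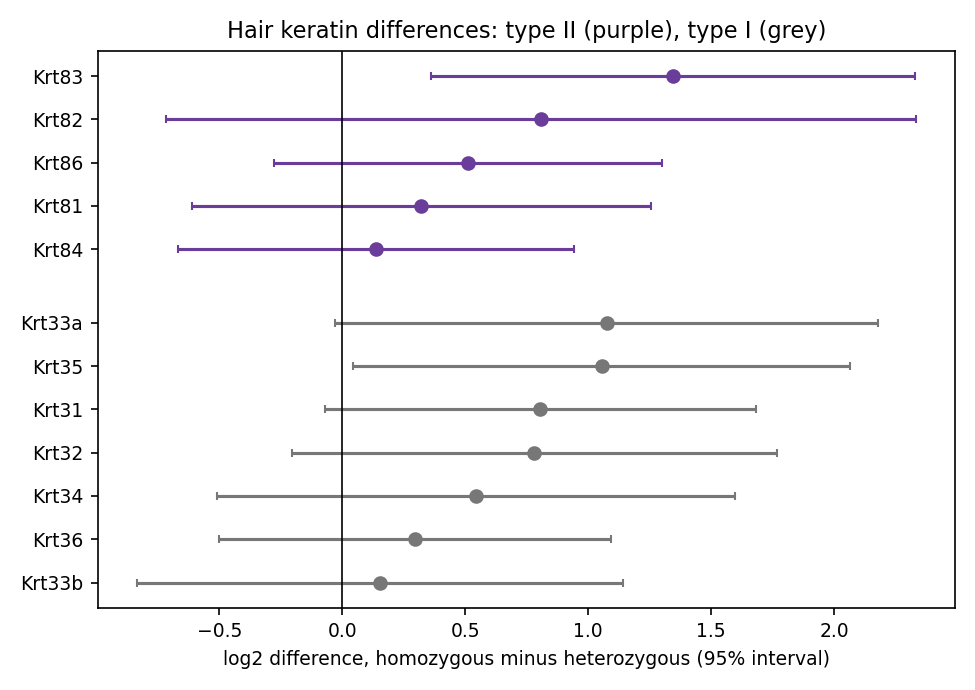
Log2 differences, homozygous minus heterozygous, with 95% intervals from the limma fit, for the 5 type II hair keratins (purple) and the 7 type I hair keratins on the array (grey). All points lie to the right of 0, from 0.14 to 1.35 among type II genes, and the intervals of Krt83 and Krt35 do not reach 0.

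Krt82, the cuticle keratin, varied within each genotype far more than between them. Its intensity was 303 in control 3 and 69.6 in control 4, a 4.36-fold gap, and 134 in homozygote 2 and 595 in homozygote 3, a 4.44-fold gap. The samples labelled replicate 3 were thus the high ones in both groups, a shared number that the labels tie to no shared animal or day. Of all kept probe sets, 96.9% had a smaller gap between the heterozygous samples and 99.5% a smaller gap between the homozygous samples. The log2 difference was 0.81 ± 0.69 (SE, n = 2 per group; 95% interval -0.72 to 2.33). It turned to -0.054 without control 4, to -0.15 without homozygote 3 and to -0.74 by the strain field, and it was 1.67 without control 3 and 1.77 without homozygote 2. The probe set's name ends in _s_at, which on this platform marks probes that may match more than 1 transcript.

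The control probe sets for 18S ribosomal RNA, beta-actin and Gapdh were higher in the sample numbered 3 of each group, as Krt82 was. The exception was the 5' beta-actin probe set, which was lower in control 3 than in control 4. The 3' probe set for 18S read 1579.6 and 303 in controls 3 and 4 and 879 and 1483 in homozygotes 2 and 3. The 3' beta-actin probe set read 8585 and 968 against 2383 and 4874, and the 3' Gapdh probe set 3546 and 3038 against 2617.5 and 3444. Their part in the Krt82 values was not tested. Krt32, a type I keratin of the cuticle, did not share the pattern, at 638 and 779 against 1218 and 1252, with groups that did not overlap. The type I hair keratins Krt34 and Krt35 did share the order, with smaller gaps. Krt34 read 917 and 711 against 905 and 1565, and Krt35 read 1256.5 and 791 against 1778 and 2494. The remaining type I hair keratins measured did not share it.

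**Figure D3:**
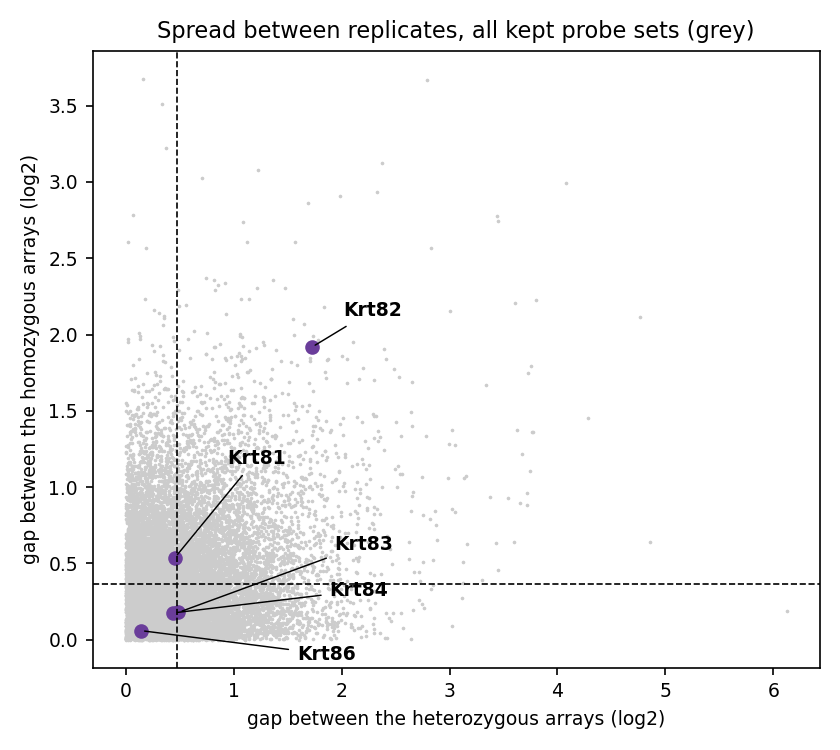
Absolute log2 gap between the heterozygous arrays (horizontal axis) and between the homozygous arrays (vertical axis) for all 13576 kept probe sets (grey) and the 5 type II hair keratins (purple), with dashed lines at the medians of 0.47 and 0.37. Krt82 lies far out on both axes, at 1.72 and 1.92, and Krt86 lies near the origin.

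Krt84 was dim on every array, with intensities of 49.2 and 78.1 in the controls and 65.9 and 78.6 in the homozygotes. Homozygote 3 and control 4 were nearly level, and the groups overlapped. The log2 difference of 0.14 ± 0.36 (SE, n = 2 per group; 95% interval -0.67 to 0.94) is understated at such intensities by the added 32. With 1 added in place of 32 it was 0.21, without control 3 it was -0.081, without homozygote 3 it was 0.050 and by the strain field -0.025.

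Ratios of members within an array do not depend on how the array was scaled, apart from the added constant, and Krt83 was higher against each other cortex member in both homozygotes. The log2 ratio of Krt83 to Krt86 was -2.21 and -1.59 in controls 3 and 4 and -0.94 and -1.18 in homozygotes 2 and 3. That is a difference of 0.83, or 1.78-fold, with no overlap (exact permutation test, two-sided, p = 0.333; 0.667 adjusted over 10 pairs). The log2 ratio of Krt81 to Krt83 was 1.33 and 1.30 against -0.06 and 0.65, so it was lower in both homozygotes, with a difference of means of -1.02. With Krt84, a dim gene, the log2 ratio of Krt83 was 3.05 and 3.10 against 4.46 and 4.11. A comparison of 2 against 2 samples cannot give an exact p below 0.333, so none of the 10 pairs could pass. Of the 10 pairs, 4 had groups without overlap, and over all pairs of kept genes the share was 27.8%. Of the 4, 3 involve Krt83 and the other is Krt84 with Krt86. Those 3 reuse the same Krt83 values, whose groups are separate already, so they are not separate observations. Without homozygote 3 the difference in the log2 ratio of Krt83 to Krt86 was 0.95, and by the strain field it was 0.72. For Krt81 to Krt83 the same values were -1.38 and -1.16, and for Krt83 to Krt84 they were 1.38 and 1.04.

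The ratio of Krt81 to Krt84 was the steadiest, at log2 values of 4.39, 4.40, 4.40 and 4.76 in controls 3 and 4 and homozygotes 2 and 3. Every ratio with Krt82 overlapped between the groups, its SD within a group reaching 1.56. The 4 pairs of Krt82 gave differences from -0.54 to 0.67, none of which kept its sign when each sample was left out in turn.

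**Figure D4:**
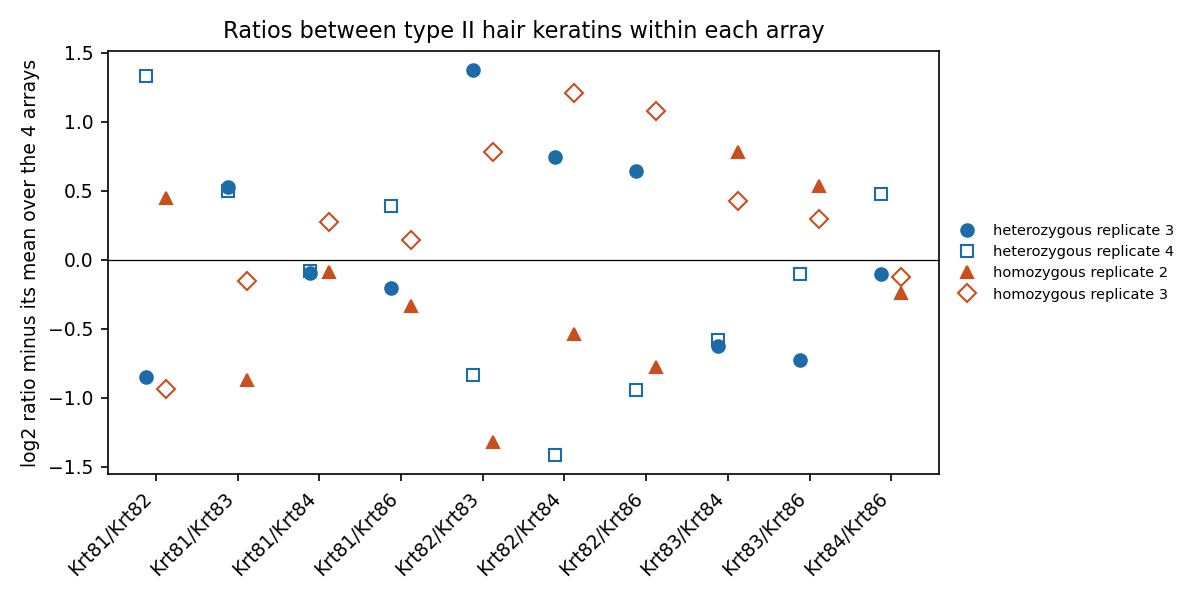
Log2 ratio of each of the 10 pairs of type II hair keratins, taken within an array and drawn relative to its mean over the 4 arrays, with heterozygous arrays in blue and homozygous arrays in orange. Blue and orange points separate in 4 pairs, 3 of them with Krt83, while pairs with Krt82 spread widely within each colour.

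The type I partners of the hair shaft showed differences in the same direction. For all 7 type I hair keratins measured the log2 difference exceeded 0 (median 0.78), with 0 called by limma and 4 with each homozygote above each control, where 13.6% of all kept probe sets had this order. Their median was 0.76 without homozygote 3 and 0.31 by the strain field, where the type II medians were 0.054 and -0.025, and this gap between the types was not tested. Krt35, a keratin of the shaft's lower region, read 1256.5 and 791 in the controls and 1778 and 2494 in the homozygotes (log2 difference 1.05 ± 0.46; 0.81 without homozygote 3 and 0.38 by the strain field). Relative to each gene's own mean, the median log2 level of the type II members was -0.29 and -0.32 in controls 3 and 4 and -0.02 and 0.43 in homozygotes 2 and 3. For type I genes it was -0.29 and -0.25 against 0.23 and 0.43. Both types were thus highest in homozygote 3, which held the highest value of 4 of the 5 type II members.

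In the shape of their values over the 4 samples, members differed in which type I gene lay nearest, and other genes lay nearer still. As the root mean square distance between log2 values centred on each gene's mean, Krt86 lay nearest to the cortex keratin Krt31 among type I genes, at 0.17. Krt81 and Krt84 lay nearest to Krt36, at 0.09 and 0.11. Krt83 lay 0.30 from Krt32 and 0.31 from Krt31. Krt82 lay no closer than 0.64 to any type I hair keratin, and 0.88 to 1.11 from every other member. For each member, 8 named genes that are not hair keratins lay closer than any type I hair keratin. The last of those 8 was at 0.048 for Krt81, 0.28 for Krt82, 0.17 for Krt83, 0.032 for Krt84 and 0.047 for Krt86. The nearness to type I genes is thus not particular to them. These distances describe 4 samples and carry no test.

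Type II keratins of other layers did not share a direction. Of the 2 inner root sheath keratins measured, Krt71 had a log2 difference of -0.34 ± 0.39 and Krt72 one of 0.69 ± 0.45. Without homozygote 3 these were -0.19 and 0.62, and by the strain field -0.029 and 0.37. Of 9 kept type II keratins of the companion layer, outer root sheath and epidermis, 5 lay above 0 and 4 below, with a median of 0.051 (0.049 without homozygote 3 and 0.072 by the strain field). Krt75, the keratin of the companion layer, read 3114 and 1838 against 1941 and 2529. Epidermal Krt1 and Krt2 were too dim to be kept, with no sample above 34.2.

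Of 17 measured genes that were listed as hair keratin regulators, Lef1 was too dim to be kept. The other 16 gave mixed values, and 0 were called by limma. Of these 12 lay above 0 and 4 below, with a median log2 difference of 0.13, which turned to -0.072 without homozygote 3 and to -0.15 by the strain field. Hoxc13, whose loss leaves mice without normal hair, read 312.5 and 894 in the controls and 292.5 and 823 in the homozygotes, so the groups overlapped. The gene mutated in nude mice, Foxn1, which encodes a transcription factor, was dim, and both its homozygous values lay above both its controls, at 65.9 and 76.2 against 3.5 and 16.1. In its shape over the samples Foxn1 was number 3 among the 8545 other named genes by nearness to Krt83, at a distance of 0.12. Nearer were the brighter genes Pcbp1, at 0.055, and BC031181, at 0.090. The ranking was made after the Krt83 values were seen. Both control values of Foxn1 lay below the constant added before logs were taken, so its distance depends on that constant. Its mean intensities differed 7.25-fold, against 2.49-fold on the log2 scale with the constant added. A link between Foxn1 and Krt83 was not tested.

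The list of other cortex and cuticle proteins split. Not all of its genes are particular to these layers, so its counts and median depend on its membership. Of 13 kept, 7 lay above 0 and 6 below, with a median log2 difference of 0.0032 (-0.23 without homozygote 3 and -0.037 by the strain field), and 0 were called by limma. S100a3, a calcium-binding protein of the cuticle, differed by 1.30 ± 0.43 and the cortex receptor gene Gprc5d by 1.53 ± 0.43. Krtap4-2, a keratin-associated protein, differed by -0.96 ± 0.46. Without homozygote 3 and by the strain field the differences were 1.59 and 1.25 for S100a3, 1.29 and 0.71 for Gprc5d, and -1.12 and -0.86 for Krtap4-2. Proliferation genes of the matrix, from which shaft cells arise, had a median of -0.17, with 1 of 7 above 0 (-0.24 without homozygote 3 and -0.19 by the strain field).

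**Figure D5:**
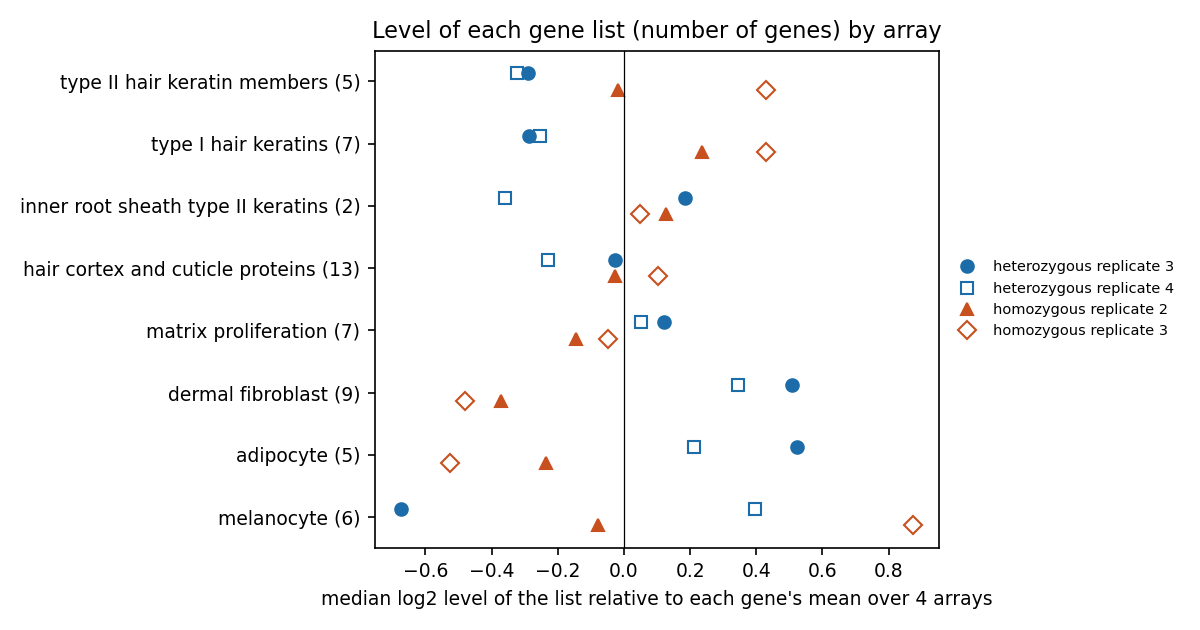
Median log2 level of each gene list on each array, relative to each gene's mean over the 4 arrays, with the number of kept genes in brackets. Both hair keratin lists are lower on heterozygous (blue) than on homozygous (orange) arrays, the fibroblast, adipocyte and proliferation lists are higher, and the other lists overlap between the groups.

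Fibroblast and adipocyte markers lay lower in the homozygotes, opposite to the hair keratins, with 0 called by limma. Of 9 kept dermal fibroblast markers 8 lay below 0, and in 5 each homozygote lay below each control, where 13.3% of all kept probe sets did. An unadjusted p under 0.05 with a lower homozygous level was found in 3 of the 9, as in 1.03% of all kept probe sets. The smallest was that of Dpt, at 440 and 755 against 149 and 148 (log2 difference -1.76 ± 0.46; limma, unadjusted p = 0.0029). Without homozygote 3 the Dpt difference was -1.75, and by the strain field -1.17. The median log2 difference of the fibroblast markers was -0.54, against -0.76 without homozygote 3 and -0.49 by the strain field. Their summed intensity was 12298 and 9956 in controls 3 and 4 and 6020 and 6201 in homozygotes 2 and 3, and no marker was at 0 (lowest intensity 29.8). All 5 measured adipocyte markers lay below 0, with sums of 13236 and 12011 against 10009 and 5591 and a lowest intensity of 122.5. Their median was -0.64, against -0.47 without homozygote 3 and -0.32 by the strain field. Of the 5, 1 had an unadjusted p under 0.05, Car3, at 3960 and 3323 against 1324 and 1390 (log2 difference -1.40 ± 0.40; limma, unadjusted p = 0.00507). Without homozygote 3 the Car3 difference was -1.43, and by the strain field -0.98. Melanocyte markers lay higher, as the hair keratins did: all 6 kept were above 0, with a median of 0.75 that fell to 0.15 without homozygote 3 and turned to -0.11 by the strain field. Pmel, a protein of the pigment granule, had both homozygotes above both controls, as 13.6% of all kept probe sets did. Its values were 312 and 182 against 677.5 and 1301 (log2 difference 1.84 ± 0.51; limma, unadjusted p = 0.00425, adjusted p = 1.00). The values of the other 5 overlapped between the groups, as did the list's sums of 1641 and 4118 against 3606 and 6888, and its lowest intensity was 47.8. The groups also overlapped in each of the 8 skeletal muscle, endothelial and leukocyte markers kept. With 13.6% of all kept probe sets above without overlap and 13.3% below, most overlapped, so this does not set these markers apart. Of the hybridization spike-ins, bacterial and phage transcripts added in fixed amounts, all 18 read lower in both homozygotes, with a mean log2 difference of -1.09. Signs of RNA quality differed too: for Gapdh, the 3' signal over that of the middle probe set was 17.2 and 30.1 in the controls and 15.4 and 14.8 in the homozygotes, and the 5' Gapdh probe set read 23.9 and 20.2 against 29.3 and 57.9. The 5' beta-actin probe set read 4.7 and 5.5 against 11.3 and 16.9, while the beta-actin ratio overlapped, at 42.1 and 11.3 against 45.9 and 33.7. The part of these differences in the keratin values was not tested.

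The genes most like the mean of the 5 members over the 4 samples were mostly dim. By the same distance, among 8545 named genes that are not hair keratins, the nearest 8 were 9530068E07Rik, Isl2, Prdx4, Septin1, Mb, Cx3cl1, Pdia6 and Ruvbl2, at 0.01 to 0.06. Prdx4, a peroxiredoxin of the secretory pathway, read 157 and 153 against 207 and 298, and Pdia6, a protein disulfide isomerase, read 214 and 178 against 259 and 363. Both control values of 9530068E07Rik, Mb, Cx3cl1 and Ruvbl2 lay below the 32 added before logs were taken, so their distances depend on it. The mean itself was -0.26 and -0.36 in controls 3 and 4 and 0.06 and 0.56 in homozygotes 2 and 3. Homozygote 3 thus stood highest. The members themselves lay farther from this mean, from 0.17 for Krt86 to 0.77 for Krt82, with Krt83 at 0.48. Near Krt82 ranked Pds5a, Wipi1, Nr4a3 and Cd44, at 0.20 to 0.25, a search added after its values were seen. Cd44, a cell surface receptor for hyaluronan, read 752 and 166 against 309 and 877.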

How the data were processed

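Samples were grouped by title. The authors deposited linear probe set intensity values, scaled per array: from the values, the trimmed mean (2% off either end) was 165 on every array. Which software and background correction made them is not given in the sources used here. Nothing ties the arrays to separate animals, so p-values reflect only how these samples vary, and that variation may be technical.

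Of 22690 probe sets, 64 controls were left out. Values became log2(intensity + 32), and the 60% with the highest mean were kept, 13576, among them all 5 members. Genes were named from the platform annotation (20380 probe sets with 1 symbol, 691 with several, 1555 with none). The fit used limma 3.58.1 in R 4.3.3 (lmFit, a trended eBayes, two-sided; 2 residual and 8.64 prior degrees of freedom), Benjamini-Hochberg adjustment and a threshold of 0.05. Pairs of members were compared by exact permutation. Members and lists were chosen with earlier results of these data known.

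Named were all members, up to 4 genes per list by smallest unadjusted p, and the 8 genes nearest to the members' mean. Krt31, Krt32, Krt34, Krt36, Krt71, Krt75, Krt1, Krt2, Hoxc13, Lef1 and the genes near single members were named after their values were seen. On simulated data for this comparison (13576 probe sets, 200 changed, 50 at each fold), the fit recovered 9.20% of 2-fold, 78.4% of 4-fold and 99.6% of 8-fold changes, with a mean of 11.1 false calls over 20 simulations. These shares do not give the power in the deposited values, of which 0 were called. The simulated noise used the spread already drawn towards that of other probe sets. The many large changes put in also ease the adjusted threshold for smaller ones. The few arrays limit the precision.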

Additional observations from a re-analysis of the deposited data

How the results depend on the processing

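Tried were 15 alternatives: 3 other pseudocounts, quantile or median scaling, other filters and variance priors, gene means, the strain field, each sample left out. The filters, variance priors and gene means could not change the difference of a kept member, as each had 1 probe set. In Krt83 and Krt86, whose groups do not overlap, another pseudocount or a left-out sample could not turn the sign. Only the scalings and the strain field could have done so. Krt83 and Krt86 stayed above 0 under all 15. No member passed limma's adjusted threshold under any, with adjusted p from 0.464 to 1.00. Over the left-out samples the count of called probe sets ran from 0 to 17 (17 without heterozygous replicate 3, 0 of them members), and the members' median from 0.054 to 0.59. Grouped by the strain field, homozygous replicate 2 stands alone in its group, and its variation is taken to be that of the rest. The median was then -0.025, with Krt81 at -0.14, Krt82 at -0.74 and Krt84 at -0.025. Over the left-out samples Krt82 ran from -0.15 to 1.77 and Krt84 from -0.081 to 0.36. Krt84 was not kept when only the highest 40% were. By the strain field 4 pair differences changed sign: Krt81 to Krt82 at 0.60, Krt81 to Krt84 at -0.12, Krt82 to Krt84 at -0.71 and Krt82 to Krt86 at -1.04. Over the left-out samples, a choice added after seeing the data, Krt81 to Krt82 ran from -1.57 to 0.60, Krt81 to Krt86 from -0.48 to 0.11, Krt82 to Krt83 from -1.64 to 0.57, Krt82 to Krt84 from -0.41 to 1.75 and Krt82 to Krt86 from -0.63 to 1.22. The causes were not tested. No paired analysis was possible because the groups share only replicate number 3.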
